A study of Mus musculus with 16 samples.

Results

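The Kcnq1 imprinted domain of mouse chromosome 7 was described here through its accessible chromatin regions in pancreatic islets. Its members were the potassium channel gene Kcnq1, the antisense RNA gene Kcnq1ot1 inside it, and the neighbouring genes Cdkn1c, Slc22a18 and Phlda2. ATAC-seq, which uses a transposase to tag open chromatin, gave a peak list for 1 female and 1 male sample of each of 8 inbred strains. The peaks of the 16 lists were merged where they overlapped or touched, and every merged region on a gene body or in the 3 kb upstream of a member was taken. This gave 22 regions of 362076 in the genome.

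The classical strains were 129S1_SvImJ (129), A_J (AJ), C57BL/6J (B6), NOD_ShiLtJ (NOD) and NZO_HlLtJ (NZO). The wild-derived strains were CAST_EiJ (CAST), PWK_PhJ (PWK) and WSB_EiJ (WSB), a grouping taken from the text of the study. No treatment was given in the labels, and neither was the age of the animals. Each sample was made from a selection of 50 islets per the labels, and nothing there says whether they came from more than 1 animal. The female and the male were the only replicates of a strain, so a strain effect was read against the spread of these pairs. The deposited value of a peak was the signal at its summit. It is printed here as scaled signal, the summit signal over the sample's median across the 42427 regions called in all 16 samples, with 0 where no peak was listed. A 0 says only that no peak passed the peak caller's threshold in that list.

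Genomic imprinting leaves 1 parental copy of a gene silent. In this domain the imprinting control region is the promoter of Kcnq1ot1, which lies in an intron of Kcnq1, is methylated on the maternal chromosome and is active on the paternal one. The long RNA made from it silences the neighbouring genes in cis, so that Cdkn1c, Phlda2 and Slc22a18 are known as maternally expressed genes. Cdkn1c encodes the cyclin-dependent kinase inhibitor p57, a brake on cell division that is known in beta cells. Kcnq1 encodes the pore of a voltage-gated potassium channel and is a known type 2 diabetes locus in humans. Both chromosomes of an inbred mouse carry the same sequence, so the parental copies cannot be told apart in these lists.

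The members occupy chr7:143106362-143503150 in mm10. Kcnq1 runs on the plus strand for 320.681 kb from position 143106362. Kcnq1ot1 runs on the minus strand from its start at 143296549 and is 93.092 kb long. Cdkn1c (143458339 to 143461050, minus strand), Slc22a18 (143473736 to 143499334, plus strand) and Phlda2 (143501545 to 143503150, minus strand) follow downstream of Kcnq1.

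The sequence of the Kcnq1ot1 promoter is shown because the start of this gene was the only start in the domain called in all 16 samples. It is chr7:143296498-143296797, minus strand, 250 bases before to 50 after the start, from RefSeq on GRCm38, with matches to CCAAT in capitals.
Kcnq1ot1 promoter: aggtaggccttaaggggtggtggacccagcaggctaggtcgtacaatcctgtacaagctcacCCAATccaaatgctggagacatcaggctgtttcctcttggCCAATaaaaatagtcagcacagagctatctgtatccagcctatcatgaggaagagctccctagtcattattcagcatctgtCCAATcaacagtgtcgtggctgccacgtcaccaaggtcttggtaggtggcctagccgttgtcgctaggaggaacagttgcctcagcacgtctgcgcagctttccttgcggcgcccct

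The Kcnq1ot1 promoter held 3 matches to CCAAT, all in the direction of transcription. At least 1 match on either strand occurred in 37.4% of the 32851 promoters of this length in the RefSeq table, and 3 or more occurred in 3.37%. It held no match to TGCCGC (11.6% of promoters held one) or CCCTC (66.0%) on either strand. It had 9 CG dinucleotides against a median of 7 over all promoters. Of the members, 3 were in the promoter table. The 250 bases upstream of the start of Phlda2 there had 21 CG dinucleotides and those of Slc22a18 had 0, beside a median of 6 for the same stretch of all promoters.

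Islet identity was checked on the regions at the starts of marker genes. Regions at all 7 beta cell markers (among them Ins1, Ins2, Pdx1 and Mafa) and at the alpha cell markers Gcg and Irx2 were called in all 16 samples. Of the delta and PP cell, duct, endothelial, leukocyte and stellate lists no promoter was called in all 16, and of 6 acinar markers 1 was (Bhlha15). Ptf1a, Cd3e, Cd79a and Pdgfrb had no peak in any sample. The NZO male had the highest summed scaled signal of the acinar (1.67, median of samples 0.836), duct (1.64, median 0.24) and endothelial markers (0.6, median 0.336). It was also highest for the leukocyte (0.491, median 0), stellate (0.509, median 0.182) and endocrine delta and PP cell markers (1.29, median 0.202). The next samples were close for delta and PP cell (CAST male, 1.26) and endothelial markers (CAST female, 0.581). They were less close for stellate (129 female, 0.397) and acinar markers (WSB female, 1.30). They were farther off for duct (CAST female, 0.810) and leukocyte markers (B6 female, 0.119). The beta cell sum of the NZO male (15.8, range of samples 11.2 to 16.9) and its alpha cell sum (4.78, range 4.76 to 6.93) lay within the range of the others. The NZO male list also held 33615 regions seen in no other sample, and the PWK male list held 38532 such regions. Values that moved without the NZO male are given both ways. The lists carry no read totals. The study states its depth as a mean over samples, so the depth of each sample was not known here and no counting interval is given. The lists held 80392 to 173735 peaks with chromosome Y left out.

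Of the 22 regions, 2 (9.09%) were called in all 16 samples, beside 11.7% of all regions. Another 4 were called in 8 to 15 samples, 7 in 2 to 7 samples and 9 in 1 sample (40.9%, beside 46.3% of all regions). Of those 9, 5 were called in the NZO male alone, beside 20.1% of all regions called in 1 sample. Of all 22 these 5 stand beside 9.28% of all regions. Without that sample the domain had 17 regions. The other regions seen in 1 sample belonged to the CAST female (3) and the WSB female (1). The number of member regions called ran from 2 in the B6 male to 15 in the NZO male. These were 9.09% and 68.2% of the 22, beside 28.5% and 37.5% of all regions in the same samples. The WSB female had 14 (63.6%, beside 46.2%) and the CAST female had 13 (59.1%, beside 38.8%). The CAST and WSB lists, of 137418 to 173735 peaks, held 8 to 14 of the member regions. The lowest of these, the CAST male, had 36.4%, beside 36.4% of all regions. The PWK male list of 150508 peaks held 4 (18.2%, beside 38.6%).

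**Figure D1:**
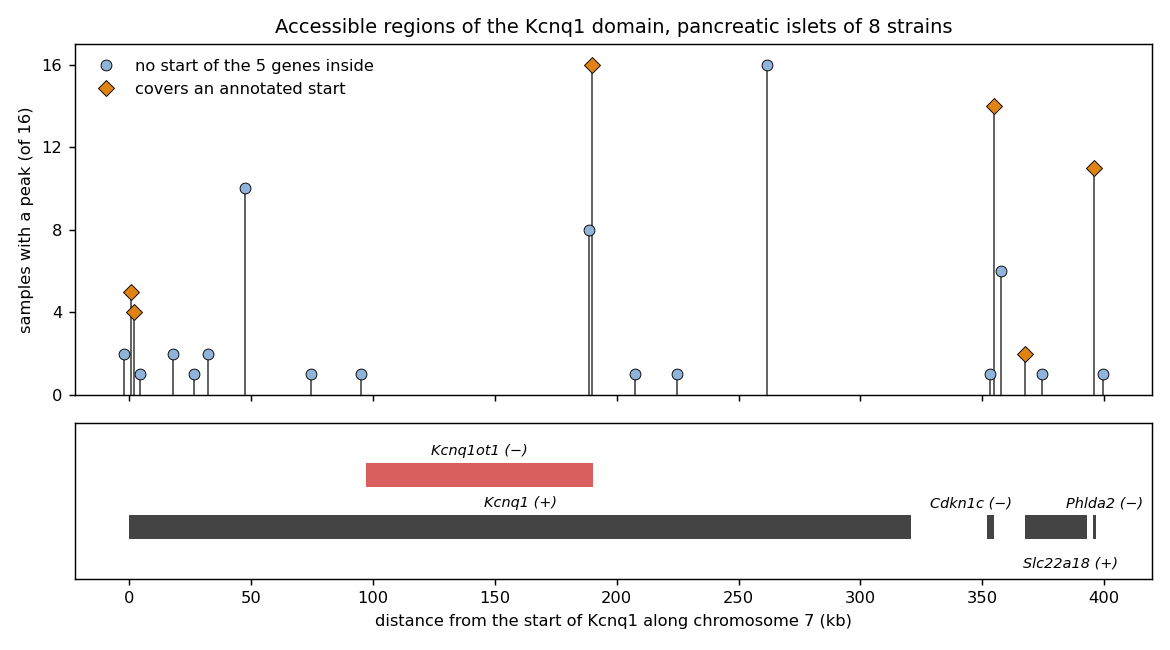
Each stem is 1 of the 22 accessible regions, placed by its distance from the start of Kcnq1 in kb, and its height is the number of the 16 samples with a peak there. Diamonds mark regions that cover an annotated start, and the lower panel shows the gene bodies with their strands. Only the region at the start of Kcnq1ot1 and a region near the end of Kcnq1 reach 16, and the body of Kcnq1ot1 is without a region except near its start.

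Regions were not spread evenly over the genes. Kcnq1 had 15 regions in its body or upstream, 2 of them shared with Kcnq1ot1, while Cdkn1c had 3 and Slc22a18 and Phlda2 had 2 each. The longest stretch between neighbouring regions inside Kcnq1 was 93.4 kb (chr7:143201433-143294799), which took in the body of Kcnq1ot1 apart from the part next to its start. The starts of the 4 protein-coding members were called less widely than the start of Kcnq1ot1. Of protein-coding genes, 55.1% had a promoter region called in all 16 samples and 18.4% had one in none. No protein-coding member had a promoter region called in all 16, and each had one in at least 2 samples.

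The Kcnq1ot1 start region (chr7:143295645-143296921, 1277 bases, intron 11 of Kcnq1) was called in all 16 samples and in all 8 of the lists that the authors made per strain, at an irreproducible discovery rate under 0.05. Its summits lay in 1 place, from -151 to -54 bases relative to the start, a span of 97 bases beside a median of 92 over all shared regions. None of the 1254 overlapping words of 24 bases in it occurred a second time in the reference genome. Scaled signal was 2.21 in the 129 female and 1.42 in the 129 male. It was 0.6 and 0.8 in the AJ female and male, and 1.18 and 0.663 in those of B6. These 3 strains already spanned the range of the 8 females. The NOD female and male had 1.09 and 0.756, and the NZO female and male 1.25 and 2.89. Of the wild-derived strains, CAST had 1.47 and 1.13, PWK 1.71 and 1.34, and WSB 0.858 and 1.17, females first. The NZO male was the highest sample and the AJ female the lowest.

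Ordered by strain mean, the region ran from NZO (2.07 ± 1.16, SD, n = 2) through 129 (1.81 ± 0.556), PWK (1.53 ± 0.259), CAST (1.30 ± 0.236), WSB (1.01 ± 0.221), NOD (0.925 ± 0.238) and B6 (0.921 ± 0.365) to AJ (0.7 ± 0.141). All 7 pairs of neighbours in this order overlapped. Strain did not pass the threshold (limma moderated F test, adjusted p = 0.0740), whereas 34.9% of the 42427 regions tested did. It passed when either NZO sample was left out, so the side of the threshold rested on that pair. Each of these fits leaves 1 sample in NZO. In both, more of all regions passed for strain than in the fit of all 16 samples. Against the mean of the other 7 strains, AJ differed by -0.86 ± 0.31 on the log2 scale (SE, limma adjusted p = 0.0969) and NZO by 0.78 ± 0.31 (adjusted p = 0.138). Neither passed. Without the NZO female, AJ differed by -0.96 and NZO by 1.51, the NZO value resting on the NZO male alone. Both passed in that fit, in which more of all regions also passed for each of these strains.

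**Figure D2:**
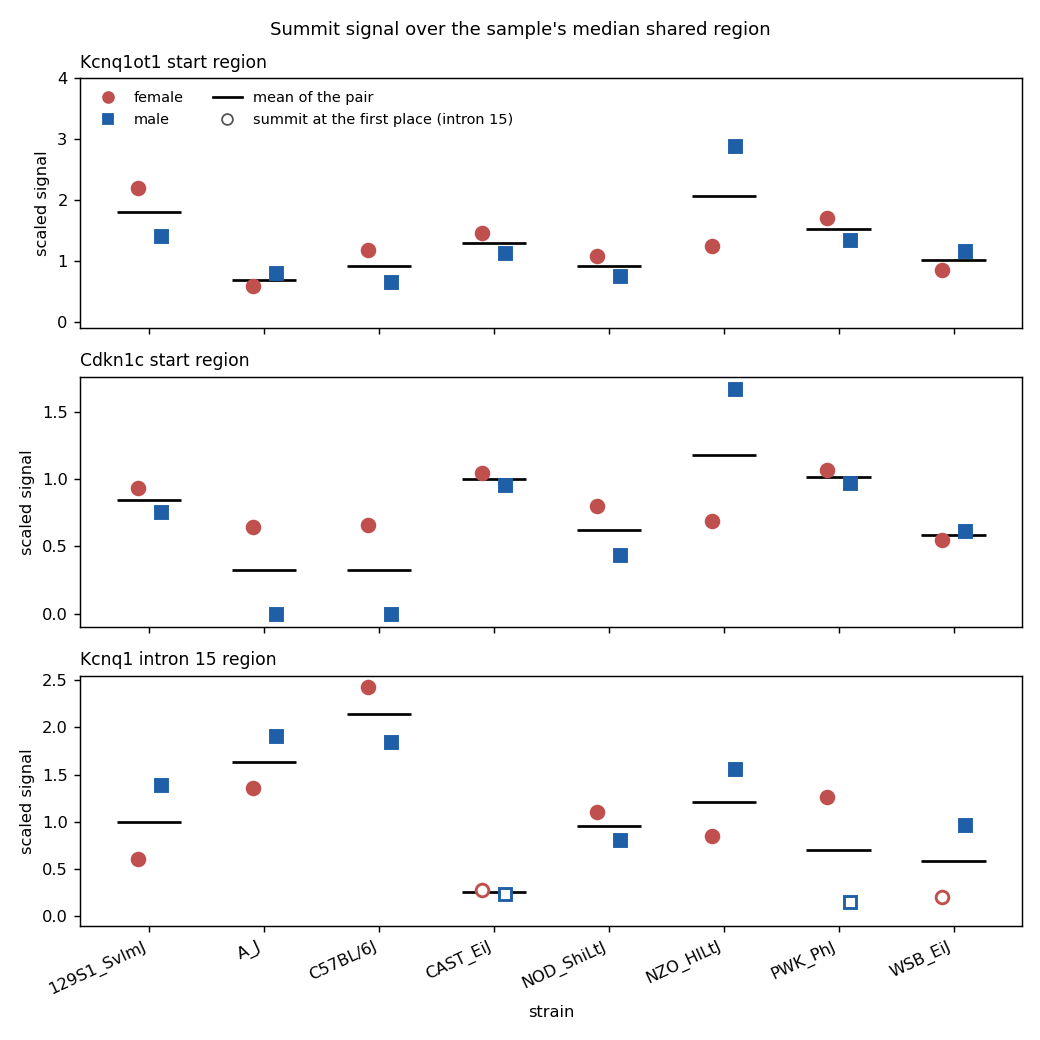
Scaled signal (no unit, linear axes) is plotted for each female (circle) and male (square) by strain, with a line at the mean of the pair, for the regions at the starts of Kcnq1ot1 and Cdkn1c and for intron 15 of Kcnq1. The NZO male is the highest point at both starts (2.89 and 1.67), and in intron 15 the 4 open symbols, whose summits lie at another place, are the 4 lowest values.

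The Cdkn1c start region (chr7:143460859-143461527, 669 bases) was the second most widely called start of the domain, with a peak in 14 of 16 samples. It was rich in CG, with 70.9% GC and an observed over expected CpG ratio of 0.94, above 99.5% of shared regions. Where it was called, scaled signal ran from 0.439 in the NOD male to 1.67 in the NZO male. The AJ male and the B6 male had no peak, while the females of these strains had 0.646 and 0.655. It was above 0.9 in both samples of CAST (1.05 and 0.956) and PWK (1.06 and 0.969). In 6 of 8 strains the female had more, and the mean difference was 0.123 ± 0.517 (SD, n = 8, exact sign-flip test, two-sided, p = 0.516). Without the NZO pair, in which the male had more, it was 0.280 ± 0.283 (n = 7, exact sign-flip test p = 0.0313, adjusted over 6 regions 0.1875). The AJ and B6 differences each set the female against a 0 for the male.

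Over the 8 strain means, scaled signal at the Cdkn1c start followed that at the Kcnq1ot1 start (Pearson's r = 0.87, exact permutation p = 0.00665, adjusted over 4 relations 0.0266, and Spearman's rho = 0.905, exact permutation p = 0.00456). Left without NZO and 129, the strains farthest from the median, 6 strains gave r = 0.926. Without the NZO male, its strain then being the female alone, r was 0.804 (exact permutation p = 0.0175, adjusted 0.0349). The Kcnq1ot1 start region was not related to the Phlda2 region in the same way (r = 0.282, exact permutation p = 0.488, rho = 0.429, p = 0.299, and r = -0.148 without those strains). Intron 15 of Kcnq1 gave r = -0.284 with the Kcnq1ot1 start (exact permutation p = 0.496, rho = -0.310, p = 0.462, and r = -0.643 without NZO and 129) and r = -0.620 with the Cdkn1c start (exact permutation p = 0.102, rho = -0.405, p = 0.327, and r = -0.776 without NZO and AJ). The relation of intron 15 with the Cdkn1c start passed without the NZO male (r = -0.814, exact permutation p = 0.0124, adjusted 0.0349, rho = -0.619, p = 0.115). Both starts also share the sample's scaling, and its part in the relation was not tested. The 4 relations were not planned, and the adjustment does not cover other pairs of regions, which were not tested. On log2 signal centred on each sample's median, over the 16 samples, 3.96% of the 42425 other shared regions had r above 0.8 with the Kcnq1ot1 start region. That is another measure than strain means of scaled signal, and no such share was computed for the Cdkn1c relation. The AJ and B6 means at the Cdkn1c start each include a 0 for the male.

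The Phlda2 region (chr7:143501600-143502557, 958 bases) covered an annotated start and coding sequence of the gene, which encodes a small protein that limits placental growth. It was called in 11 samples. In each of them it was lower than the Kcnq1ot1 start region, and lower than the Cdkn1c start region except in the AJ male, where Cdkn1c had no peak. Where called, scaled signal ran from 0.207 in the NOD male to 0.618 in the NZO male, and the next highest sample, the 129 female, had 0.328. The 129 male, B6 male, NOD female, NZO female and PWK male had no peak. Its observed over expected CpG ratio of 0.886 was above 98.8% of shared regions.

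At the start of Kcnq1, 2 regions covered annotated starts. The first (chr7:143106846-143107382, 69.3% GC) was called in both CAST samples (0.333 and 0.25), both WSB samples (0.425 and 0.307) and the NZO male (0.927). The second (chr7:143108112-143108510) was called in the CAST female (0.219), both WSB samples (0.349 and 0.307) and the NZO male (0.382). In the other classical samples and in both PWK samples neither was called. A promoter of Slc22a18, which encodes an organic cation transporter, was called only in the NZO male (1.07) and the WSB female (0.104), at chr7:143473570-143473819. Without the NZO male it was a region of 1 sample.

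**Figure D3:**
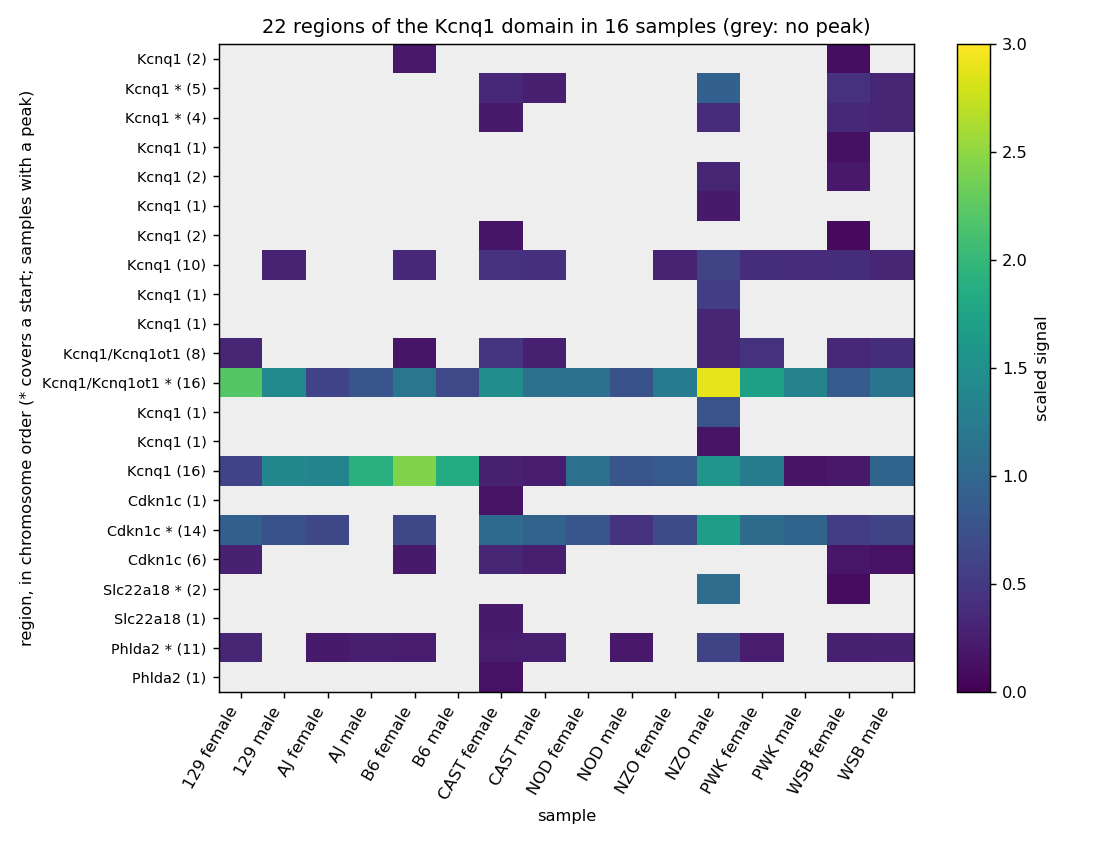
Rows are the 22 regions in chromosome order with the number of samples called in parentheses, columns are the 16 samples, and colour is scaled signal from 0 to 3, with grey where no peak was listed. The rows with 16 samples, at the Kcnq1ot1 start and in intron 15 of Kcnq1, are filled across, the column of the NZO male holds 15 regions and that of the B6 male holds 2.

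Inside Kcnq1, a region in intron 2 (chr7:143153946-143154199) was called in 10 samples. It was called in all 6 wild-derived samples and in 4 of 10 classical ones, from 0.284 in the NZO female to 0.618 in the NZO male. Averaged by strain, scaled signal was 0.385 ± 0.0298 (SD, n = 3) in wild-derived and 0.154 ± 0.184 (n = 5) in classical strains (two-sided exact permutation of the strains, 56 splits, p = 0.107). Without the NZO male, the highest sample here, the classical mean was 0.120 ± 0.122. The region reached the 8 samples needed for this test only with its wild-derived samples, and an absent peak counts as 0. The test therefore cannot separately support a class difference. A region inside Kcnq1ot1, centred 1625 bases from its start (chr7:143294800-143295048), was called in 8 samples, 5 of them wild-derived. Its strain means were 0.316 ± 0.085 in wild-derived and 0.0803 ± 0.0797 in classical strains. The ranges of strain means did not overlap (0.218 to 0.369 and 0 to 0.164, exact permutation p = 0.0179, adjusted over 6 regions 0.107). That p is the smallest that 56 splits can give. Single samples did overlap (129 female 0.328 and NZO male 0.309, against 0 in the PWK male). The region reached the 8 samples needed for this test only with its wild-derived samples, and an absent peak counts as 0. The test therefore cannot separately support a class difference. Strain means were likewise apart, with the wild-derived above, in 4.72% of the 92917 regions called in at least 8 samples. In a limma fit over these regions, in which 0.0635% were called for the class difference, this region did not pass (adjusted p = 0.227). Of its 226 words of 24 bases, 75 occurred elsewhere in the genome, up to 106 times, and 75.9% of its bases were masked as repeat in the reference. A read made up only of such words cannot be assigned with certainty. The study sequenced read pairs longer than these words, and whether those could be placed was not computed. The part of the copies in the signal was not tested.

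Of the remaining regions called in more than 1 sample, one about 3 kb upstream of Cdkn1c (chr7:143464000-143464199) was called in 6 samples, both of CAST (0.314 and 0.25), both of WSB (0.179 and 0.148), the 129 female (0.276) and the B6 female (0.214). Another 3, upstream of Kcnq1 and in its intron 1, were called in 2 samples each, at 0.0755 to 0.309, and the WSB female was 1 of the 2 samples in each case. The 9 regions of 1 sample had scaled signals from 0.132 to 0.764, the highest being in the NZO male.

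The intron 15 region of Kcnq1 (chr7:143367600-143368456, 857 bases) was the other region called in all 16 samples, and 6 of the strain lists held it at an irreproducible discovery rate under 0.05. Scaled signal was highest in B6 (2.43 in the female and 1.84 in the male) and lowest in the PWK male (0.156). AJ had 1.35 and 1.91, 129 had 0.603 and 1.39, NOD had 1.1 and 0.805, and NZO had 0.852 and 1.56. The wild-derived samples had 0.276 and 0.235 in CAST, 1.26 and 0.156 in PWK, and 0.208 and 0.966 in WSB. The CAST pair was close, while the PWK female was 8.05 times the PWK male and the WSB male 4.65 times the WSB female.

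The merged region held peaks at 2 places, 625 bases apart between their median summits. In 12 samples the summit lay within the 29 bases of chr7:143368409-143368437. In 4 samples, both of CAST, the PWK male and the WSB female, it lay at 143367715 to 143367809. These 4 samples were the 4 lowest of the 16 (0.156 to 0.276, against 0.603 to 2.43). The first place was covered by peaks of 8 samples and the second by 13, 5 of them wide peaks spanning both, so neither place by itself was called in all 16. The span of summits, 722 bases, was reached by 9.43% of shared regions.

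At the second place 8 samples, all of classical strains, had peaks of only 49 to 60 bases, a width that 8.53% of all peaks did not exceed. They had 49 bases in common. All 26 words of 24 bases in this stretch occurred elsewhere in the reference genome, up to 671 times, while the 8 words in the bases shared at the first place were unique. The processing steps stated by the authors removed unmapped, mitochondrial and duplicated reads and named no filter on mapping quality. In the 300-base window around the median summit, 42 of 277 words recurred. The read pairs of the study were longer than these words, and whether they could be placed was not computed. The signal in intron 15 is thus uncertain as a measure of this locus, and the share of reads from the copies was not tested.

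**Figure D4:**
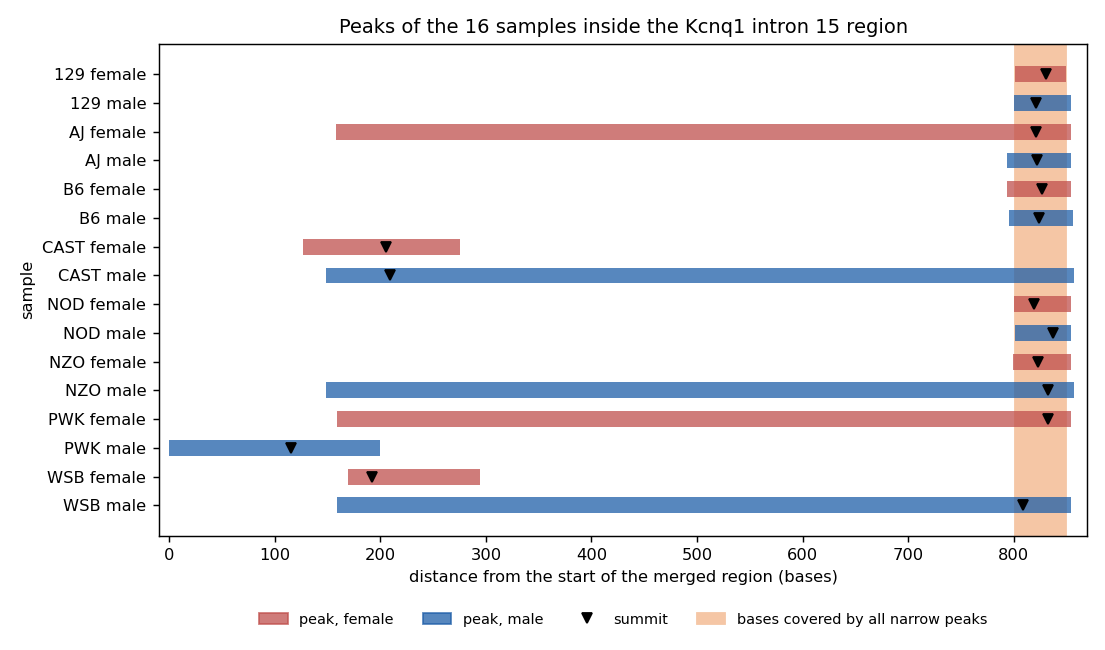
Bars show the extent of each sample's peak in the Kcnq1 intron 15 region and triangles its summit, by distance in bases from the start of the merged region, with the 49 shared bases shaded. The summits of 12 samples stand in the shaded stretch, and those of both CAST samples, the PWK male and the WSB female stand at the other end.

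Read as 1 region, intron 15 did not pass the threshold for strain (limma adjusted p = 0.0664). It passed without the PWK female, the PWK male, the WSB male or the NZO female, each of which leaves 1 sample in a strain. Without the NZO female more of all regions passed for strain as well. CAST against the mean of the other 7 strains was the only one of the 16 single-strain contrasts in the domain that passed, at -1.87 ± 0.59 on the log2 scale (SE, limma adjusted p = 0.0391). In this contrast 20.2% of all regions passed. The call was lost, at adjusted p = 0.0507 to 0.307, without the 129 male, the AJ male, the B6 female or any 1 of the CAST and NOD samples. In the other strains the share was 2.97% for 129, 6.59% for AJ, 2.96% for B6, 2.95% for NOD, 5.05% for NZO, 10.8% for PWK and 5.64% for WSB. B6 against the other 7 was 1.57 ± 0.59 (adjusted p = 0.186, and 0.0395 without the PWK female). Both CAST summits lay at the first place and 12 of the other 14 at the second, so the contrast set the signals of different bases against each other.

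**Figure D5:**
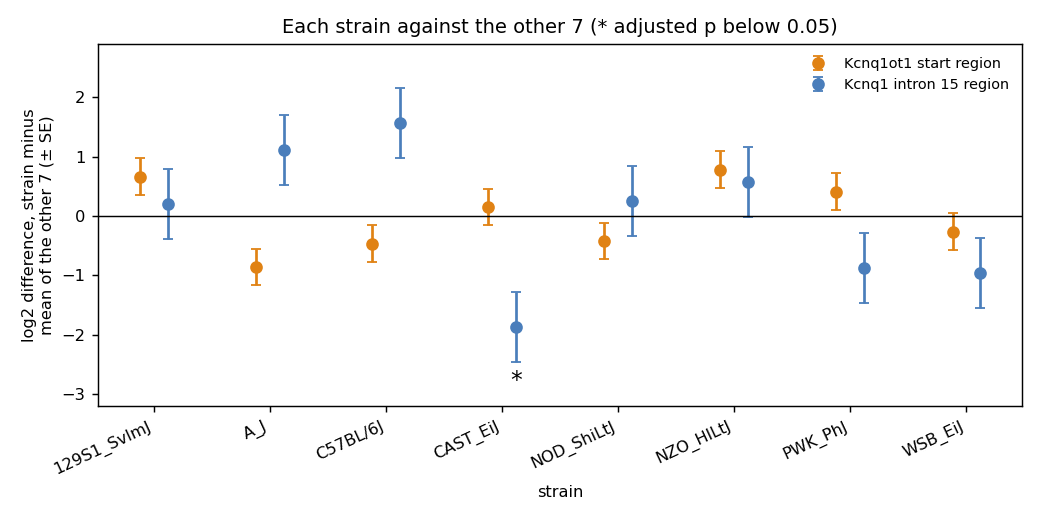
Points are the log2 difference of each strain from the mean of the other 7, with bars of 1 SE from the limma fit, for the Kcnq1ot1 start region and the Kcnq1 intron 15 region. The asterisk marks CAST in intron 15 (-1.87), the only contrast with an adjusted p under the threshold of 0.05.

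In intron 15 the wild-derived strains differed from the classical ones by -1.73 ± 0.32 on the log2 scale (SE, limma on strain means). This did not pass over all regions (adjusted p = 0.115, beside 0.033% of regions that passed). An exact permutation test of this region alone gave p = 0.0179, the smallest that 56 splits can give. On the linear scale the means were 0.517 ± 0.234 (SD, n = 3) and 1.39 ± 0.498 (n = 5). Strain means were 0.256 to 0.707 and 0.955 to 2.14 (exact permutation p = 0.0357, adjusted over 6 regions 0.107). Strain means were apart in this direction in 4.44% of shared regions. Without the NZO male the exact permutation p was 0.0714. With the summit at the second place, the PWK female (1.26) and the WSB male (0.966) lay within the range of the classical samples. At the Kcnq1ot1 start the class difference was 0.14 ± 0.34 (limma adjusted p = 0.912), an interval that takes in both directions.

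No sex difference passed the limma test at either region called in all 16 samples. Female minus male was 0.08 ± 0.20 on the log2 scale at the Kcnq1ot1 start and -0.10 ± 0.39 in intron 15 (SE, limma adjusted p = 0.999 for both), while 0.00943% of all regions passed. A difference of the sex effect between strain classes did not pass at either region (0.02 ± 0.44 and 0.62 ± 0.83, SE, limma adjusted p = 1.00 for both). Over all 42427 regions that test called 0 (0%), with 666 at an unadjusted p under 0.05. On scaled signal, exact sign-flip tests over the 8 strains gave p of 0.313 or more in each of the 6 regions called in at least 8 samples. Without the NZO pair p was 0.109 or more in each of them except the Cdkn1c start, given above.

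Around the domain, 8 of 14 neighbours in the distal chromosome 7 imprinted cluster had a promoter region in all 16 samples, beside 55.1% of protein-coding genes. Among them were Tssc4 (1.31 to 5.65) before the domain and Nap1l4 (1.49 to 5.24) after it. Trpm5, which lies between Tssc4 and Kcnq1, was called in 13 samples. Igf2, Ascl2 and Tspan32 had no peak at their starts in any sample. Of the 8 tested, 2 were called for strain, beside 34.9% of all regions (Ins2, limma adjusted p = 0.00501, and Th, adjusted p = 0.00744). Against the other 7 strains, CAST was higher at 3 of the 8 (Ins2, Th and Tnfrsf22), beside 6.79% of all regions, and lower at 0, beside 13.4%. AJ and NZO were lower at Ins2 and NOD was lower at Th. The summed scaled signal of the neighbours was also highest in the NZO male (25.2, median of samples 14.2), as it was for the member promoters (7.18, median 2.19), whereas that of the channel subunit genes was lowest in the NZO male (4.89, median 6.73).

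Among the other pore subunits of the KCNQ family and their KCNE partners, 4 of 8 had a promoter region in all 16 samples (Kcnq3, Kcnq5, Kcne2 and Kcne3), beside 55.1% of protein-coding genes. Of these, 3 were called for strain, beside 34.9% of all regions, Kcnq3 (limma adjusted p = 0.000862), Kcnq5 (adjusted p = 0.00840) and Kcne2 (adjusted p = 0.00812). Kcne1 and Kcne4 had no peak at their starts in any sample. Kcnq1 itself had its promoter called in 5 samples.

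The shared regions whose pattern over the 16 samples was most like that of intron 15 lay in Auts2 (chr5:131519729-131519792, Pearson's r = 0.978), in Dpp9 (chr17:56199995-56200095, r = 0.971) and in Ybx3 (chr6:131377400-131377600, r = 0.970). The centre of the Ybx3 region lay 741 bases from the nearest start. For the Kcnq1ot1 start they were regions at the starts of Dnase2a (chr8:84913001-84913554, r = 0.954), Gm34284 (chr15:99074303-99075117, r = 0.953) and Kcnab2 (chr4:152477082-152478580, r = 0.951). These are descriptions over 16 samples that share their strain in pairs.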

How the data were processed

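The members and gene lists were chosen with earlier results of these data known. Per the labels and the study's methods, the authors trimmed adapters (cutadapt 2.0), aligned read pairs to mm10 (Bowtie2 2.3.4.1), removed unmapped, mitochondrial and duplicated reads (Picard 2.9.2) and called peaks per sample by MOSAiCS (false discovery rate 0.05). No shift for the transposase cut was named. The deposited summit signal is not scaled to depth; the deposited mean signal served as an alternative. The strain lists of the authors give the irreproducible discovery rate as a −log10 value. Peaks on chromosome Y (5992) were left out.

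Merged regions were set against GENCODE M21 genes (GRCm38.p6, the assembly of mm10). No batch was given in the labels. limma 3.58.1 (R 4.3.3) was fitted to log2(signal + 1), centred on each sample's median over the 42427 regions called in all 16 samples, with strain and sex as terms. Classes were compared on strain means. Differences between low signals are understated on this scale. p-values were adjusted by Benjamini-Hochberg over all regions, within each contrast. The fits were tested on simulated data with known shifts added to 1 strain and to 1 sex. Samples were grouped by the strain and sex labels.

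Named regions were those covering a member's start, those called in all 16 samples and, of the others, those called in at least 6. The plan was to name the 10 others called most widely, but the less widely called are given by counts and ranges. Regions called in both samples of 1 to 3 strains and nowhere else were also to be named, but there were none. Words of 24 bases were counted on both strands of the reference chromosomes. Alternatives were another pseudocount, scaling, filter, signal column and list length, and leaving out each sample.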

Additional observations from a re-analysis of the deposited data

Results flagged for a closer look

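For 5 measures (member regions called, and scaled signal at the Kcnq1ot1 start, the Cdkn1c start, the Phlda2 region and intron 15 of Kcnq1), the gap of the extreme sample to its nearest neighbour was compared with Dixon's critical value among the females, the males, the classical and the wild-derived samples. Of these 20 groups of values, 5 gave an outlier, where chance flags about 1 in 20 of independent groups. The groups share samples, and a 0 marks only an absent peak, so that rate need not hold here. The NZO male gave 4 of them. Among the 8 males its scaled signal stood above the rest at the Kcnq1ot1 start (2.89, others 0.663 to 1.42) and at Phlda2 (0.618, others 0 to 0.273). Among the 10 classical samples it stood above the rest in member regions called (15, others 2 to 8) and at Phlda2 (0.618, others 0 to 0.328). The other was the PWK male at Phlda2, which had no peak (0) where the other 5 wild-derived samples had 0.229 to 0.273.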

How the results depend on the processing

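The domain had 22 regions and 19 to 26 under the planned changes of the limits and of merging, but 12 with equal numbers of peaks per list, where fewer peaks enter. Of the regions called in all 16 samples, 1 remained with equal numbers of peaks, 1 at the irreproducible discovery rate of all 8 strain lists, 0 where a list had to cover 50% of the region, and 1 where the 2 places in intron 15 were counted apart. The counts without the NZO male (17) and with the places apart were chosen after seeing the data, as were the exact tests of strain class and the exact tests and relations without the NZO male. The exact sign-flip tests of sex and the 4 relations over all samples were not planned either. For strain, 0 of the 2 regions passed, but 1 passed with a pseudocount of 10, with the mean signal and with strain alone (intron 15), and 1 without centring (Kcnq1ot1 start). Leaving out 1 sample gave 0 to 2. For single strains, 1 contrast passed, beside 3 without centring and 0 after quantile normalization, with regions called in at least 8 samples and with the mean signal. It was also 0 with equal numbers of peaks, where intron 15 was not among the regions tested, and without CAST, whose contrast then cannot be made. Leaving out 1 sample gave 0 to 3. Without centring the median of all regions moved by 0.76 on the log2 scale in the CAST contrast and by -0.80 in that of PWK. The cause of these changes was not tested. No alternative called sex or, in limma, strain class at either region. The class difference at the Kcnq1ot1 start turned to -0.30 with the mean signal. The sex difference in intron 15 turned to 0.077 without centring and ran from -0.52 to 0.19 when 1 sample was left out, where it reversed between 0.0034 and 0.19, and at the Kcnq1ot1 start it ran from -0.025 to 0.26. Without the NZO male, on scaled signal, the class difference at the Kcnq1ot1 start turned from -0.0053 to 0.159, female minus male turned from -0.0206 to 0.0242 in intron 2 and from -0.0133 to 0.0731 at Phlda2, and the Kcnq1ot1 to Phlda2 relation turned to r = -0.171, none of them past the threshold. Both samples of each strain were paired throughout, since sex was compared within strains and strain was fitted with sex as a term. The depth of each sample is unknown, so an absent peak was not told from a shallow list.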
